A study of Mus musculus with 6 samples.

Results

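Transcript levels of 9 genes of the oligodendrocyte lineage were followed in the hippocampus of mice that carried an ORAI1 transgene and of wild-type mice. The genes were taken by symbol from a table of 54838 genes, as the myelin genes Mbp, Mog, Mobp, Mag, Cnp and Mal and the lineage and precursor markers Olig2, Pdgfra and Cspg4. Each of the 9 was found under 1 identifier, and none was lost to the filter on low counts. Polyadenylated RNA of single hippocampi was sequenced from 3 wild-type females and from 3 females of the line FVB/NJ-Tg(Orai1)Ibd, 1 library per mouse, all aged 7 months. In that line a human ORAI1 cDNA, which codes for a calcium channel of the plasma membrane, is driven in neurons by the Thy1.2 promoter cassette, and the wild-type mice do not carry it. The cassette is used to express genes in neurons and not in oligodendrocytes, and the mice come from 1 transgenic line.

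Oligodendrocytes wrap axons in myelin, a compacted stack of membrane that speeds conduction and feeds the axon. They arise throughout life from precursor cells, which divide, keep the platelet-derived growth factor receptor alpha and the NG2 proteoglycan on their surface, and lose both as they differentiate. In the adult hippocampus the myelinated fibres lie mainly in the alveus, the fimbria and the deep hilus, so that the amount of myelin RNA in a dissected hippocampus also depends on how much of these tracts is taken along. Levels here are those of whole tissue, in which fewer cells of a type and less RNA per cell cannot be told apart.

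The 9 genes were protein-coding genes of the mouse genome build GRCm38. Mbp, the gene of myelin basic protein, has 16 annotated transcripts, which the gene counts do not separate. Pdgfra lay at chr5:75152292-75198215 and Cspg4 at chr9:56865033-56899870, both on the plus strand. Olig2, with 1 annotated transcript, lay at chr16:91225457-91228677. Cnp overlapped Dnajc7 on the opposite strand, and the counting kept the strand.

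RefSeq promoter windows of build GRCm38.p6, from 250 bases before to 50 bases after the annotated start, were used for 8 of the 9 genes. They were searched on both strands for the letters CTGGCAC and CTGGTAC, which MYRF, the transcription factor that switches on myelin genes, is known to bind, and for ACAAAG and ACAATG, known as letters of SOX factors. The MYRF letters stood in the windows of 3 of 5 myelin genes, Mog, Mag and Cnp, and in 0 of 3 lineage and precursor genes, and 7.1% of all 32851 windows held them. The SOX letters stood in Mobp, Mag, Cnp and Olig2, and in 28.6% of all windows. The 200 bases from 250 to 51 before the start are shown for the 3 genes with the MYRF letters. The letters of both motifs are in capitals, and the sequence is written in the direction of the gene. These 200 bases lie at chr17:37023449-37023648 on the minus strand for Mog, chr7:30914914-30915113 on the minus strand for Mag and chr11:100574689-100574888 on the plus strand for Cnp.
Mog: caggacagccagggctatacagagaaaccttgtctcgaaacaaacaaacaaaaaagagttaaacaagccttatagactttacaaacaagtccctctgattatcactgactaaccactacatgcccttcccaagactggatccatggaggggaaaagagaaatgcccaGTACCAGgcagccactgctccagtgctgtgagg
Mag: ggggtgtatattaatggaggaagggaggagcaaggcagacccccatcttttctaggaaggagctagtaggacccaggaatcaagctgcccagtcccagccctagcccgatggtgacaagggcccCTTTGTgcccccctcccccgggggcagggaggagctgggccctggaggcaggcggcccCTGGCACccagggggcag
Cnp: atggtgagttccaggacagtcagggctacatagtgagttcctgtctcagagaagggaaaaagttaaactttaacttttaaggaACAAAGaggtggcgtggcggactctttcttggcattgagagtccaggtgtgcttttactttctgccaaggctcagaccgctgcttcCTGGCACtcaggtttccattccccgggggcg
The MYRF letters began 83 bases before the start in Mog, on the opposite strand, 68 bases before it in Mag and 81 bases before it in Cnp. These matches describe the windows only.

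Total counts ran from 37710188 to 52497799 in wild-type and from 37414241 to 47027279 in transgenic libraries. The count of Orai1 was between 302 and 376 in wild-type and between 11834 and 14620 in transgenic libraries, as labelled. Defining hippocampal markers were present in all 6, with Neurod6, of pyramidal neurons, at 168 to 196.7 CPM and Prox1, of dentate granule cells, at 84.34 to 108.9 CPM. CPM are counts relative to the library total after TMM scaling. Of 16 choroid plexus genes all 16 were lower in the transgenic libraries (median log2 fold change -2.79), and their summed level was 2541 to 4493 CPM in wild-type against 261.4 to 493.4 CPM in transgenic mice.

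Per gene length, the myelin genes stood far above the precursor markers. In wild-type libraries Mbp had 263.6 FPKM, which are counts relative to the exonic length and the library total, with a range of 226 to 296.1 over 3 mice. Mobp, which codes for a second basic protein of compact myelin, followed at 115.9 FPKM, with a range of 98.14 to 130.8. Cnp, the cyclic nucleotide phosphodiesterase of the uncompacted layers, and Mal, a proteolipid of myelin membranes, had 79.53 and 78.93 FPKM, and their ranges overlapped. Mag, an adhesion molecule facing the axon, had 41.53 FPKM, and Mog, a glycoprotein of the outermost lamella, had 33.69 FPKM. Olig2, the transcription factor that precursors and mature oligodendrocytes share, came next at 11.54 FPKM, with a range of 10.85 to 11.9. Pdgfra followed at 7.058 FPKM and Cspg4, the gene of the NG2 proteoglycan, at 2.199 FPKM. The order was the same in transgenic mice, where the ranges of Mag and Mog, 37.31 to 44.13 and 30.69 to 37.63 FPKM, overlapped as well as those of Cnp and Mal.

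The myelin genes shared much of their order over the 3 wild-type mice and less of it over the transgenic mice. Mbp was at 1904, 2255 and 2479 CPM in wild-type mice 1, 2 and 3 and at 2698, 2382 and 2854 CPM in transgenic mice 1, 2 and 3. Mobp was at 674.2, 813.1 and 892.4 CPM in wild-type and at 886.5, 754.5 and 950.9 CPM in transgenic mice. For both genes wild-type mouse 1 was the lowest of the 6 libraries and transgenic mouse 3 the highest, and the lowest transgenic library, mouse 2, was below the highest wild-type library, so the genotypes overlapped. Mog was at 49.69, 60.05 and 62.32 CPM in wild-type and at 57.05, 52.21 and 64.07 CPM in transgenic mice. Mal was at 183, 218.2 and 256 CPM in wild-type and at 220.8, 218.9 and 247.8 CPM in transgenic mice. Again wild-type mouse 1 was the lowest for Mog and for Mal, and the genotypes overlapped. Mag was at 152.3, 170.4 and 184.2 CPM in wild-type and at 181.2, 151.7 and 168.2 CPM in transgenic mice. Cnp was at 248.2, 282.9 and 336.3 CPM in wild-type and at 290.5, 328 and 306.1 CPM in transgenic mice. In wild-type mice all 6 genes were lowest in mouse 1 and highest in mouse 3. Mag was the highest in mouse 1 among transgenic mice, where Mbp, Mobp, Mog and Mal were the highest in mouse 3. Cnp departed from the other myelin genes in transgenic mouse 2, which was the highest transgenic library for Cnp and the lowest for the other 5.

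**Figure D1:**
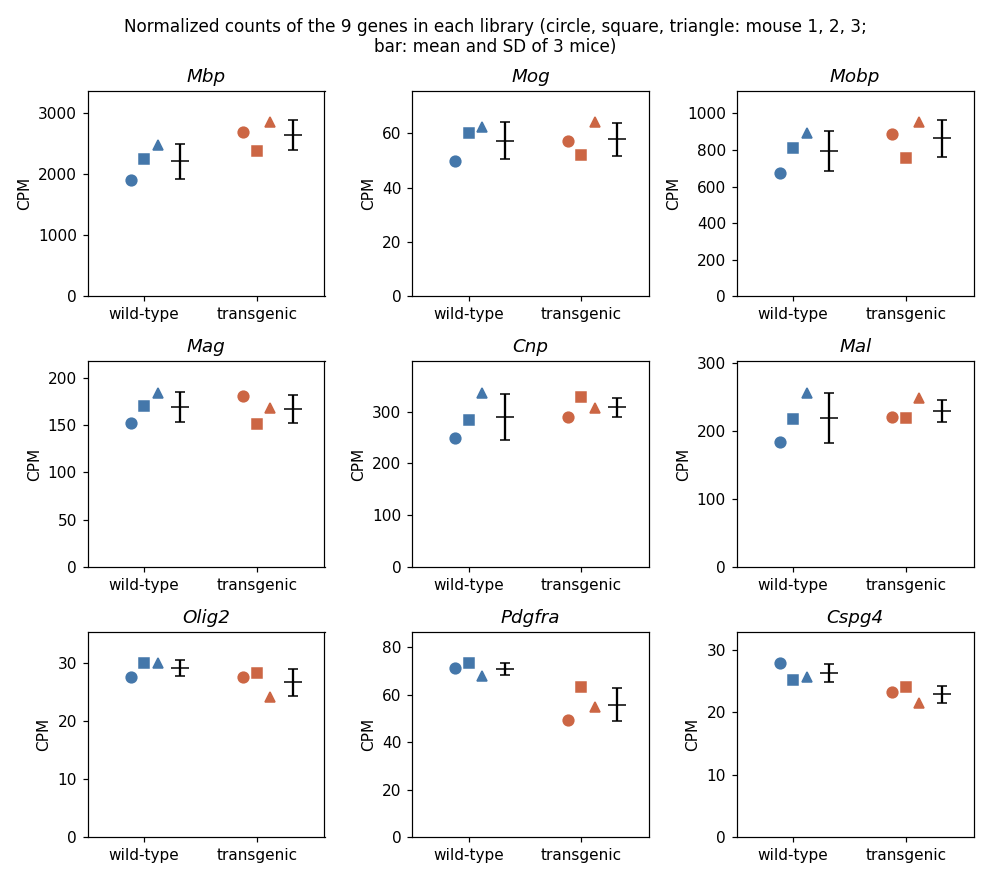
CPM of the 9 genes (vertical axis, from 0) in 3 wild-type (blue) and 3 transgenic (orange) libraries, with mean and SD of 3 mice as black bars. The genotypes overlap for the 6 myelin genes and Olig2, while the 3 transgenic values of Pdgfra, 49.42 to 63.16 CPM, and of Cspg4, 21.42 to 23.98 CPM, sit below every wild-type value.

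Together the 6 myelin genes took 0.3202%, 0.3803% and 0.4226% of all counts in wild-type mice 1, 2 and 3 and 0.4298%, 0.3893% and 0.4594% in transgenic mice 1, 2 and 3. Wild-type mouse 1 was the lowest library for 5 of the 6, and wild-type mouse 3 and transgenic mouse 3 were each the highest for 3. Within genotypes the SD of log2 CPM ran from 0.133 for Mag to 0.189 for Mobp. Among genes of like mean level (the same decile) the median SD was between 0.0697 and 0.0705, and between 86.3% and 95.2% of those genes varied less than the myelin gene. Pdgfra had an SD of 0.131, near that of Mag, and 84.3% of genes in its decile varied less. Olig2 had an SD of 0.102, with 69.9% below it, and Cspg4 one of 0.0797, with 54% below it, in a decile with a median of 0.0752.

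**Figure D2:**
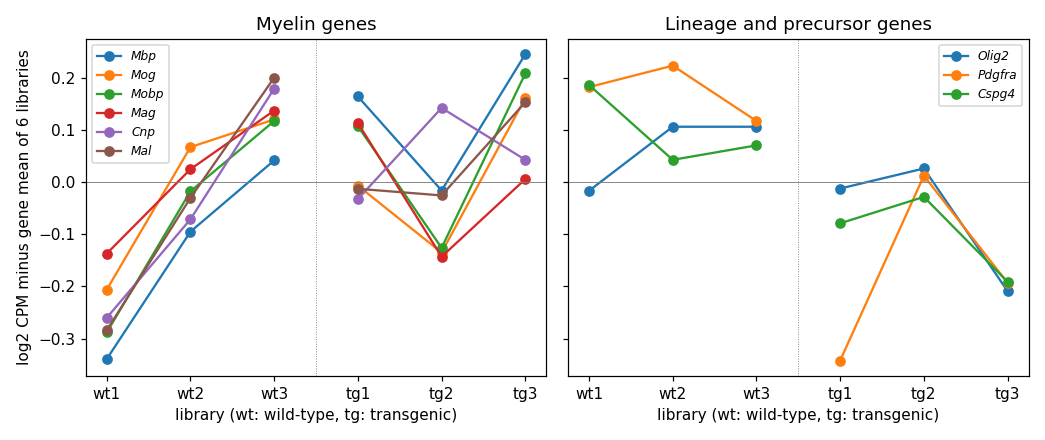
log2 CPM of each gene minus its mean over 6 libraries (vertical axis) for wild-type (wt1 to wt3) and transgenic (tg1 to tg3) mice, with myelin genes on the left and Olig2, Pdgfra and Cspg4 on the right. Lines join the values of 1 gene and the mice have no order. All 6 myelin genes are under their mean in wild-type mouse 1, at -0.339 for Mbp to -0.137 for Mag.

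Likeness to the myelin genes was described by Pearson's r over the 6 libraries, between log2 CPM of a gene and the mean profile of the 6 genes, among 11182 genes with a mean log2 CPM above 3. The 5 genes most alike were Mfap1b (r = 0.981), Plekhb1 (r = 0.979), Trf (r = 0.977), Trp53inp2 (r = 0.973) and Anln (r = 0.973), and 41 genes had an r above 0.9. Trf, the gene of transferrin, Plekhb1 and Anln, of the anillin that scaffolds septins in myelin, are known oligodendrocyte genes, and 3 of the 5 were among the lineage genes listed for this work. For Olig2, Pdgfra and Cspg4 the genes most alike included Nxn (r = 0.985), Aasdh (r = 0.984), Coq3 (r = 0.982) and Gfpt1 (r = 0.979), none of these 4 a listed lineage gene, and 211 genes had an r above 0.9. The points share the library, its dissection and its depth.

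No myelin gene passed the test between genotypes. edgeR's quasi-likelihood test was applied to 19087 genes with Benjamini-Hochberg adjustment, and 7.10% of them had an adjusted p under 0.05, 591 genes as higher and 764 as lower in transgenic mice. Of the 9 genes 0 did, and at an unadjusted p under 0.05 there were 2, Pdgfra and Cspg4, where 27.8% of all genes tested were under that value. DESeq2's Wald test called 1 of the 9, Pdgfra, and 11.7% of all genes tested. For Mbp the log2 fold change of transgenic over wild-type was 0.26 (SE 0.11, 95% interval -0.0011 to 0.52, adjusted p = 0.181, edgeR). For Mobp it was 0.12 (interval -0.16 to 0.40), for Cnp 0.092 (-0.16 to 0.34), for Mal 0.066 (-0.20 to 0.34), for Mog 0.012 (-0.23 to 0.25) and for Mag -0.016 (-0.22 to 0.19), with adjusted p-values between 0.55 and 0.957 in edgeR. With single mice left out, Mobp ran from 0.034 without wild-type mouse 1 to 0.235 without transgenic mouse 2, and Cnp from 0.0075 without wild-type mouse 1 to 0.221 without wild-type mouse 3. The intervals leave room for changes of either sign, and a fold change of the size estimated for Mbp lies within those of Mobp, Cnp and Mal. The median of the 6 was 0.079, beside -0.0101 over all genes tested. Wild-type mouse 1 decided its sign, as the median was -0.0134 without that mouse, and it was 0.209 without wild-type mouse 3.

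The 3 lineage and precursor markers all had fold changes below 0, and for 2 of them the genotypes did not overlap. Pdgfra, the receptor that carries the mitogen signal of platelet-derived growth factor to precursors, was at 71.05, 73.13 and 67.95 CPM in wild-type and at 49.42, 63.16 and 54.8 CPM in transgenic mice. Every transgenic library was below every wild-type library. Its mean was 70.71 CPM (SD 2.61, n = 3) in wild-type and 55.8 CPM (SD 6.926, n = 3) in transgenic mice, and its log2 fold change was -0.34 (SE 0.087, 95% interval -0.55 to -0.14). The unadjusted p was 0.0048 and the adjusted p = 0.0567 in edgeR's quasi-likelihood test, just above the threshold. The call turned with the settings. The adjusted p was 0.00696 in DESeq2's Wald test, 0.0224 in edgeR with no filter on low counts, and 0.0457 in edgeR without transgenic mouse 2, while over all alternatives it ran from 0.00696 to 0.183 and the fold change from -0.42 to -0.26.

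Cspg4 was at 27.82, 25.19 and 25.68 CPM in wild-type and at 23.15, 23.98 and 21.42 CPM in transgenic mice. Every transgenic library was again the lower, with a log2 fold change of -0.20 (SE 0.067, interval -0.36 to -0.043) and an adjusted p of 0.107 in edgeR. Olig2 was at 27.53, 29.98 and 29.98 CPM in wild-type and at 27.61, 28.36 and 24.09 CPM in transgenic mice. Here the genotypes overlapped, and the log2 fold change was -0.13 (interval -0.30 to 0.050, adjusted p = 0.319, edgeR). The genotypes did not overlap for 2 of the 9 genes, and for 34.9% of all genes tested. The log2 fold change of Cspg4 was -0.33 with trends of counts on GC content removed and -0.093 with trends on gene length removed. That of Olig2 was -0.25 with trends on GC content removed and -0.038 without transgenic mouse 3, and neither gene passed the test in any of these fits.

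**Figure D3:**
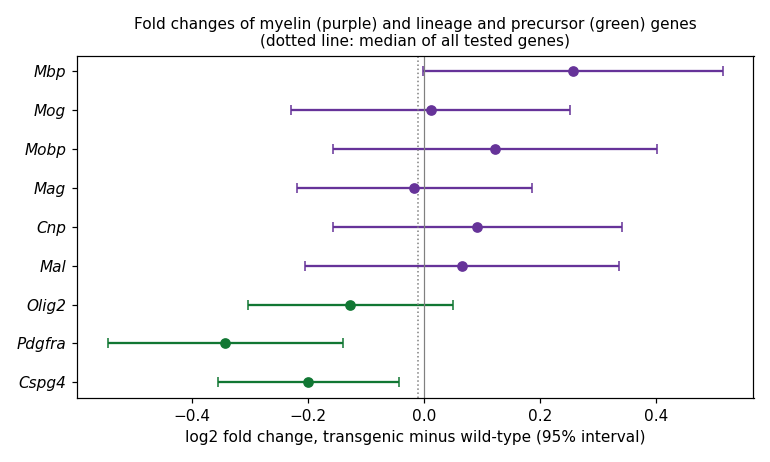
log2 fold change of transgenic over wild-type (horizontal axis) with 95% intervals from edgeR for the 6 myelin genes (purple) and the 3 lineage and precursor genes (green). The intervals of Pdgfra (-0.55 to -0.14) and Cspg4 (-0.36 to -0.043) lie below 0, and those of the other 7 hold 0.

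Pdgfra and Cspg4 are not confined to precursors, since fibroblasts of the meninges and vessels carry Pdgfra and pericytes carry Cspg4. The summed level of 8 fibroblast genes, among them Dcn, Col1a1 and Col1a2, was 196.1, 180.7 and 271 CPM in wild-type mice 1, 2 and 3 and 117.1, 361.9 and 222.5 CPM in transgenic mice 1, 2 and 3. Transgenic mouse 1 was the lowest and transgenic mouse 2 the highest library for the sum, and among transgenic mice Pdgfra was also lowest in mouse 1 and highest in mouse 2. Among wild-type mice the order was the opposite, with Pdgfra highest in mouse 2, where the sum was lowest, and lowest in mouse 3, where it was highest. Of the 8, 0 passed the test in edgeR or DESeq2, beside 7.10% and 11.7% of all genes tested, and edgeR with no filter on low counts called 1. In edgeR 1, Igf2, had an unadjusted p under 0.05, beside 27.8% of all genes. Igf2 was lower in every transgenic library, with a log2 fold change of -1.20. The median log2 fold change of the 8 was 0.11. The sign of that median was not stable. It was -0.279 without transgenic mouse 2, 0.411 without transgenic mouse 1, 0.374 without wild-type mouse 3, 0.0201 without wild-type mouse 2, 0.0257 without wild-type mouse 1, and -0.0222 in limma-voom with all 6 mice. The 10 mural cell genes, among them Pdgfrb and Rgs5, summed to 306.6, 258.9 and 361.9 CPM in wild-type mice. In transgenic mice the sum was 227.2, 404.5 and 339.4 CPM. Of the 10, 0 passed the test in edgeR or DESeq2. In edgeR 1, Abcc9, had an unadjusted p under 0.05, beside the same 27.8% of all genes. It was lower in every transgenic library, with a log2 fold change of -0.20. The median log2 fold change of the 10 was 0.0073. With single mice left out that median ran from -0.0306 without transgenic mouse 2 to 0.089 without transgenic mouse 1, and it was -0.0992 with trends on GC content removed. The part of these cells in the levels of Pdgfra and Cspg4 was not tested.

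Relative to the other myelin genes of the same library, Mbp stood higher in the transgenic mice. This comparison was chosen after the values were seen. The log2 ratio of Mbp to Mog was 5.26, 5.231 and 5.314 in wild-type and 5.563, 5.512 and 5.477 in transgenic mice, so that the genotypes did not overlap and their means differed by 0.249. They did not overlap for the ratios to Mobp, Mag and Mal either, with differences of 0.135, 0.278 and 0.185 on the log2 scale. For Cnp the ratio was 2.94, 2.995 and 2.882 in wild-type and 3.215, 2.86 and 3.221 in transgenic mice, with transgenic mouse 2 below all wild-type mice. Of the 10 pairs among the 5 other myelin genes the genotypes did not overlap for 2, Mog to Mobp and Mobp to Mag. The share of all genes tested that lay apart was not taken for these single ratios, so the counts of pairs have no background beside them.

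Mbp made up 59.3%, 59.35% and 58.88% of the summed CPM of the 6 genes in wild-type mice and 62.25%, 61.27% and 62.16% in transgenic mice. Its log2 CPM minus the mean of the 5 others was 3.344, 3.358 and 3.339 in wild-type and 3.578, 3.489 and 3.578 in transgenic mice, a difference of 0.201. Taken against the same 5 genes, 3.05% of all genes tested were likewise higher in every transgenic mouse than in any wild-type mouse. That share is no measure of how unusual Mbp was. The 5 genes varied more between mice than most genes of like level, and that variation cancels only for a gene that varies with them. The share among other myelin genes was not taken. An exact two-sided permutation test of 3 against 3 mice cannot give a p below 0.1. The log2 fold change of Mbp exceeded the median of the 5 others by 0.19, and by 0.1505 to 0.2987 over all alternatives, where the highest value came from removing trends on gene length. Mbp has an exonic length of 8403 bp and Mog one of 1704 bp.

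**Figure D4:**
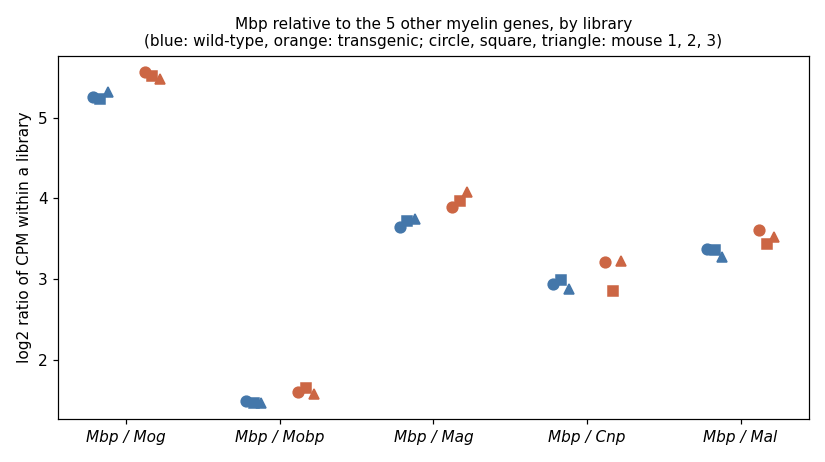
log2 ratio of the CPM of Mbp to that of each of 5 other myelin genes (vertical axis) within each library, for 3 wild-type (blue) and 3 transgenic (orange) mice. The genotypes are apart for Mog, Mobp, Mag and Mal, and transgenic mouse 2 overlaps the wild-type mice for Cnp at 2.86.

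Against the precursor marker Pdgfra, the log2 ratio of Mbp was 4.744, 4.946 and 5.189 in wild-type and 5.771, 5.237 and 5.702 in transgenic mice. The genotypes did not overlap, and the difference of the means was 0.61. Against Pdgfra the same held for 50.2% of all genes tested. The ratios of Mog, Mobp, Mag and Mal to Pdgfra overlapped between genotypes, with differences of 0.361, 0.475, 0.332 and 0.425. That of Cnp to Pdgfra did not, at 1.804, 1.952 and 2.307 in wild-type and 2.556, 2.376 and 2.482 in transgenic mice, a difference of 0.45.

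The wider lineage showed few calls. In 5 lists with 82 genes, all of which were tested and which include the 9 genes, 2 passed the test, beside 7.10% of all genes, and 1 of them rose and 1 fell in transgenic mice. The gene that rose was Mycl, a MYC family transcription factor listed with newly formed oligodendrocytes, at 26.65, 26.83 and 26.44 CPM in wild-type and 37.48, 39.13 and 35.04 CPM in transgenic mice. Its log2 fold change was 0.48 (SE 0.056, adjusted p = 0.0088, edgeR), and the adjusted p was 0.0565 without wild-type mouse 1 and 0.0518 without wild-type mouse 2. Its fold change was 0.498 and 0.503 in those fits, which called 77 and 94 of all genes. The gene that fell was Enpp2, which codes for autotaxin, a secreted enzyme of mature oligodendrocytes and also of the choroid plexus. Enpp2 was at 1754, 1610 and 1408 CPM in wild-type and at 381.5, 300.3 and 329.2 CPM in transgenic mice, with a log2 fold change of -2.24 (SE 0.11, adjusted p = 2.3e-04, edgeR). The 16 choroid plexus genes fell in the same libraries, and the part of that tissue in Enpp2 was not tested.

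Of 27 myelin genes 0 passed the test in edgeR and 1 had an unadjusted p under 0.05, beside 7.10% and 27.8% of all genes tested. Of the 27, 15 had a fold change above 0, with a median of 0.0078. The sign of the median was not stable. Without wild-type mouse 1 it was -0.0507 with 6 genes above 0, and without wild-type mouse 3 it was 0.063 with 21 above 0. It was -0.0177 with trends on GC content removed and -0.0241 with trends on gene length removed. DESeq2's Wald test called 1 of them, Tmem88b, beside 11.7% of all genes. Of 17 genes of mature oligodendrocytes, 9 had a fold change above 0 and the median was 0.029. That median ran from -0.056 without wild-type mouse 1 to 0.111 without wild-type mouse 3, and it was -0.033 with trends on GC content removed. Enpp2 was the 1 that passed the test in edgeR, beside 7.10% of all genes tested, and 2 had an unadjusted p under 0.05, beside 27.8%. DESeq2's Wald test called Pex5l as well, 2 of 17, beside 11.7%. The log2 fold change of Pex5l was -0.43 (adjusted p = 0.089, edgeR). It was also called in edgeR with no filter on low counts, with the replicate block, with GC offsets and the block, and without transgenic mouse 1.

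Of 12 lineage transcription factors 0 passed the test in edgeR and 2 had an unadjusted p under 0.05, beside 7.10% and 27.8% of all genes tested. DESeq2's Wald test called none of them, beside 11.7% of all genes, and the median was 0.039. It was -0.0019 without wild-type mouse 1 and 0.082 without transgenic mouse 3. Sox10, which marks the whole lineage, was at 37.12, 42.49 and 43.19 CPM in wild-type and 49.85, 48.64 and 44.23 CPM in transgenic mice. The genotypes did not overlap, but the log2 fold change of 0.22 had an adjusted p of 0.112 in edgeR and was 0.0645 with trends on GC content removed. Olig1, the partner of Olig2, had a log2 fold change of 0.022 (adjusted p = 0.831, edgeR), and -0.124 with trends on GC content removed.

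Of 14 precursor genes, Pdgfra and Cspg4 among them, 10 had a fold change below 0 and the median was -0.107. It was -0.0285, with 7 of 14 above 0, with trends on gene length removed, -0.0373 without wild-type mouse 1 and -0.0401 without transgenic mouse 3. In edgeR 0 passed the test, beside 7.10% of all genes tested, and 4 had an unadjusted p under 0.05. For those same 4 the genotypes did not overlap. These 4 of 14 stand beside 27.8% and 34.9% of all genes tested, respectively. The 4 were Pdgfra, Cspg4, Ptprz1, a receptor phosphatase of precursors and astrocytes, and Lhfpl3. Ptprz1 was at 309.2, 288.6 and 305.2 CPM in wild-type and 232.7, 273.8 and 258.8 CPM in transgenic mice, with a log2 fold change of -0.24 and an adjusted p of 0.0698 in edgeR. Lhfpl3 was at 19.32, 18.34 and 16.41 CPM in wild-type and 11.86, 16.01 and 14.74 CPM in transgenic mice, with a log2 fold change of -0.35 and an adjusted p of 0.112 in edgeR. DESeq2's Wald test called 2 of the 14, Pdgfra and Ptprz1, beside its 11.7% of all genes.

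**Figure D5:**
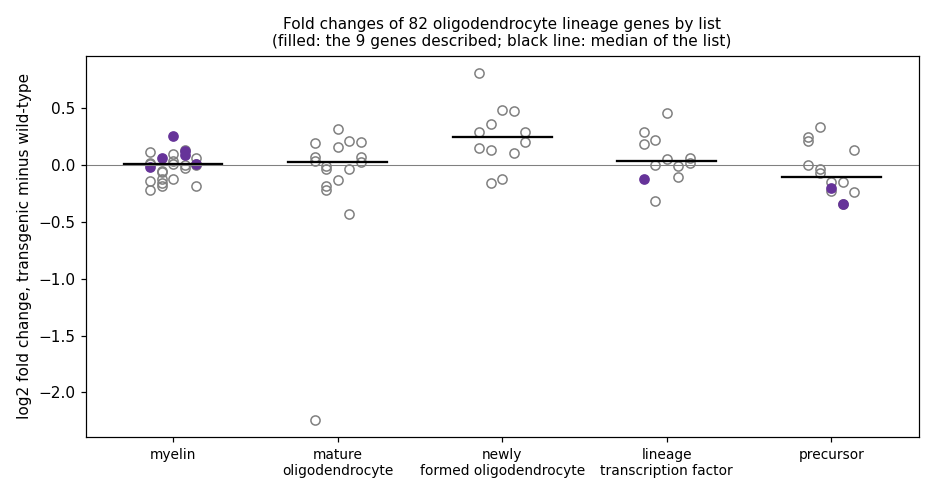
log2 fold change of transgenic over wild-type (vertical axis) for the 82 genes in 5 lists (horizontal axis), with the 9 genes filled and the median of each list as a black line. The medians run from -0.107 for precursor genes to 0.245 for newly formed oligodendrocytes, and Enpp2 stands apart at -2.24.

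Lists of other cell types were read for comparison. Of 10 neuronal genes 2 passed the test, beside 7.10% of all genes, with Slc17a7 higher and Gad2 lower, and the median log2 fold change was -0.0002. That median ran from -0.0912 without transgenic mouse 1 to 0.0523 without transgenic mouse 2 and was -0.0467 with trends on GC content removed. Neither was called with trends on GC content removed alone, where 465 of all genes were, or in the 4 fits without wild-type mouse 1 or 2 or transgenic mouse 2 or 3, where between 77 and 192 of all genes were. The median was -0.0097 for 8 astrocyte genes and 0.293 for 7 microglial genes. In edgeR 0 genes of either list passed the test, and 0 and 2 had an unadjusted p under 0.05. DESeq2's Wald test called 0 and 1. Over all genes tested these shares were 7.10%, 27.8% and 11.7%. For 9 genes of the thalamus, a myelin-rich region near the hippocampus, the median was 0.121, with 6 above 0. The 3 below 0 were Slc17a6 (-0.62), Prkcd (-0.56) and Ntng1 (-0.089). In edgeR 0 of the 9 passed the test and 1, Slc17a6, had an unadjusted p under 0.05. DESeq2's Wald test called 1. The same shares of all genes stand beside these counts. The thalamic median was 0.017 without wild-type mouse 1, 0.0155 without transgenic mouse 2, -0.0282 without transgenic mouse 3, 0.2 without wild-type mouse 3 and 0.171 without transgenic mouse 1. For astrocyte genes it ran up to 0.0866 without wild-type mouse 3, and for microglial genes from 0.196 without transgenic mouse 2 to 0.466 without transgenic mouse 1. Summed levels of the thalamic genes were 195.1 to 207.9 CPM in wild-type and 163.4 to 214.9 CPM in transgenic mice. Within these sums Calb2 was at 44.19 to 83.06 CPM in wild-type and 42.49 to 88.06 CPM in transgenic mice. Slc17a6 was at 15.67 to 24.7 CPM in wild-type and 10.3 to 15.68 CPM in transgenic mice.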

How the data were processed

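Polyadenylated RNA of hippocampi from 3 wild-type and 3 transgenic females was sequenced. The authors filtered reads with Trimmomatic, aligned them to mm10 with STAR and deposited counts of fragments per gene, with exonic lengths in bp. Per the file headers, featureCounts 1.5.0-p1 counted read pairs, reversely stranded (setting 2), with a mapping quality of at least 3, on Ensembl 95. All 6 count columns were used, with genotypes from the labels. Each library is 1 mouse, so p-values measure the spread between mice.

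Genes were kept by edgeR's filterByExpr (minimum count 10), which left 19087, with TMM scaling. The test between genotypes was that of edgeR 4.0.16 (quasi-likelihood, no covariates, Benjamini-Hochberg adjustment, threshold 0.05) in R 4.3.3, with limma 3.58.1 and DESeq2 1.42.0 for alternatives. SE and 95% intervals were derived from the F statistic. A prior count of 2 was used for log2 CPM. Counts, lengths and library totals gave the FPKM. The study used NOISeq, which was not repeated. Counting error is small at these depths, where the 9 genes had at least 802 counts in each library. The fit was tested on simulated data. Python 3.11.15, pandas 2.3.3 and matplotlib 3.10.9 prepared tables and figures.

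The 9 genes and the lists were chosen with earlier results of these data known. The genes named were the 9, every lineage gene past the threshold, Sox10, Olig1 and Gpr17, a few examples per marker list, and the 5 genes most alike in profile. Any other gene was named after its values were seen. Alternatives were scaling by total counts or by DESeq2's size factors, other tests (DESeq2, limma-voom) and filters, offsets for GC content and length, a replicate block, and each mouse left out. The promoter of Mbp and some genes that the rule names are not reported here.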

Additional observations from a re-analysis of the deposited data

How the results depend on the processing

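Of the 9 genes, 0 passed the threshold in edgeR, and 1, Pdgfra, passed with DESeq2's Wald test, with no filter and with the replicate block, and 0 to 1 with each mouse left out. For the 82 lineage genes the count of 2 became 6 with DESeq2, 4 with no filter, 4 with the block and 1 to 3 with each mouse left out. Over all genes the count of 1355 became 2230 with DESeq2, 738 with the block, 465 with GC offsets, 864 with length offsets, 438 with GC offsets and the block, and 77 to 1149 with each mouse left out. The fold change of Mog turned to -0.0029 with GC offsets, -0.061 with length offsets and -0.0017 with GC offsets and the block, and ran from -0.068 to 0.10 with each mouse left out. In the same fits Mag ran from -0.078 to 0.073 and Mal from -0.034 to 0.20. The other 6 genes kept their direction in all 16 alternatives. The cause was not tested.

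The libraries of both genotypes carry the numbers 1 to 3, but same-numbered mice are different animals, and their deviations correlated between -0.357 and 0.399 (mean 0.143 over 11191 genes), so the numbers were not taken as pairs. With the block, the log2 fold change of Pdgfra was -0.35 (adjusted p = 0.0491, edgeR).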

Other observations

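Genes of newly formed oligodendrocytes, like those of some other lists, were highest in 1 library. Of 12 such genes 11 had their highest level in transgenic mouse 2, while 14.8% of all genes tested did. So did 7 of 8 fibroblast and 6 of 7 microglial genes. Gpr17, a receptor of the last step before myelination, was at 37.64, 42.94 and 72.57 CPM in wild-type mice 1, 2 and 3 and at 58.42, 164.6 and 45.06 CPM in transgenic mice 1, 2 and 3. Its log2 fold change of 0.81 had an adjusted p of 0.320 in edgeR and was 0.0488 without transgenic mouse 2. Enpp6, an enzyme of oligodendrocytes that begin to myelinate, was at 8.98, 9.503 and 20.53 CPM in wild-type and 8.49, 29.17 and 16.4 CPM in transgenic mice. Bcas1 was at 152.2, 164.1 and 219.3 CPM in wild-type and 203.7, 260.6 and 189.6 CPM in transgenic mice. Nkx2-2, a transcription factor of early oligodendrocytes from another list, was at 4.796, 4.455 and 5.019 CPM in wild-type and 5.038, 9.723 and 4.888 CPM in transgenic mice. The median log2 fold change of the 12 genes was 0.245, with 10 above 0, and 0.0561, with 7 above 0, without transgenic mouse 2. In the same mouse Mbp, Mog, Mobp, Mag and Mal were at their lowest among transgenic libraries, and the 8 fibroblast genes summed to 361.9 CPM, the highest of the 6 libraries. Enpp6, Bcas1 and Nkx2-2 were named after their values were seen, and no test was made of this pattern.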
